A study of Mus musculus with 24 samples.

Results

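The genes Tal1, Lmo2, Gata2, Gfi1b, Runx1, Meis1, Kit, Cd34 and Slamf1 were followed in whole blood RNA of young and old mice 24 h after x-irradiation. They are regulators and surface markers of blood stem cells, progenitors and megakaryocytes, and they were taken by name: each probe whose gene name in the scanner files is 1 of these 9 symbols was used. That gave 11 of 39429 probes, for 9 of 29742 gene names, with a pair of probes each for Cd34 and Runx1 and a single probe for the other genes. All 11 probes passed the filter on dim probes, and all 9 genes passed the filters on signal and on variation and entered the tests. The study set 4 groups of 6 male C57BL/6J mice, 1 mouse per array: young unirradiated mice (2 months), young mice given 4 Gy of x-rays, old unirradiated mice (21 months) and old mice given 4 Gy. Blood was drawn by cardiac puncture 24 h after exposure into a solution that lyses cells and stabilises RNA, so each array shows the RNA of all blood cells and platelets together. All groups are of a single strain and sex and were examined at a single time point. Levels are given as log2 signal minus the median of the array, and a difference of 1 on this scale is a doubling.

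Tal1, Lmo2 and Gata2 encode parts of a DNA-binding complex of stem and progenitor cells in which the bridging protein Lmo2 holds a basic helix-loop-helix factor and a GATA factor together, and the same complex, with Gata1 in place of Gata2, runs the erythroid and megakaryocytic programs. Runx1 and Meis1 are transcription factors needed for stem cells and for platelet formation, and Gfi1b is a transcriptional repressor that acts within the erythroid and megakaryocytic lineages. Kit is the receptor for stem cell factor, Cd34 is a sialomucin of progenitor and endothelial surfaces, and Slamf1 (CD150) is a receptor found on long-term stem cells, megakaryocytes and activated lymphocytes. In blood, stem and progenitor cells are rare, platelets carry RNA of the megakaryocytes that shed them, and young red cells carry RNA of erythroblasts.

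GATA factors bind the letters GATA with A or T before them and A or G after them, and the promoters of members that hold such a match are shown. RefSeq promoter sequences (build GRCm38.p6) were found for 8 of the 9 genes, 12 start sites in all, and none was found for Lmo2. In the 250 bases before the start, on either strand, 4 of the 12 member promoters held a GATA match, against 26.5% of 32851 promoters. They belong to Tal1, Gfi1b, Cd34 and Slamf1. The letters CANNTG (an E-box) were found in 4 of the 12, against 66.2% of all promoters, and TGTGGT, also with C as the third letter, which Runx factors bind, in 1 of the 12 (Meis1), against 18.6%. The promoters of Kit counted among the 12 overlap almost wholly, so nearly the same letters were counted again. A match is a description of the letters, and its part in the changes of the genes was not tested. Each sequence is given 5′ to 3′ on the strand of the gene, and capitals mark the GATA match, which reads as its reverse complement in Tal1 and Cd34.
Tal1, chr4:115056176-115056425, plus strand: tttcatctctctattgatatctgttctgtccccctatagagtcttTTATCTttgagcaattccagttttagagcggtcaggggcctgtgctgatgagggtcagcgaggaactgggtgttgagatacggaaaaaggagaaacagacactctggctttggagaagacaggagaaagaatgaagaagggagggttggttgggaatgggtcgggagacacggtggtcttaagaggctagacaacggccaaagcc
Gfi1b, chr2:28621983-28622232, minus strand: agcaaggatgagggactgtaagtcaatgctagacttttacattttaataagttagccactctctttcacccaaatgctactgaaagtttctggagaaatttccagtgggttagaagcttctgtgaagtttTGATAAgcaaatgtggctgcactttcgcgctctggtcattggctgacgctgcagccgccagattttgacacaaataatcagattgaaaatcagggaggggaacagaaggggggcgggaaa
Cd34, chr1:194938571-194938820, plus strand: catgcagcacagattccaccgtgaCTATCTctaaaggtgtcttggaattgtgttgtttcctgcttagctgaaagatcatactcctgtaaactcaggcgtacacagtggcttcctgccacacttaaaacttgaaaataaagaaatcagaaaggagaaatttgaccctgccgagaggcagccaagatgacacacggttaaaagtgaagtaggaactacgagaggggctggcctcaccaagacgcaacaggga
Slamf1, chr1:171766882-171767131, plus strand: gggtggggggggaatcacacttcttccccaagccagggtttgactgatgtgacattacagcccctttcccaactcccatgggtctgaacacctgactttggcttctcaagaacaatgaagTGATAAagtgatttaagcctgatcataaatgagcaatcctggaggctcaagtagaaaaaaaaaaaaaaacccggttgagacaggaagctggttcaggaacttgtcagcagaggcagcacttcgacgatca

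Before the results, some arrays stood apart. Old irradiated mice 4 and 6 had the dimmest of the 24 arrays, with median signals of 8.66 and 8.84 against 14.4 to 44.8 on the others. Their mean over 20 red cell and erythroid markers, relative to each marker's median in young unirradiated mice, was 1.74 and 1.77 on the log2 scale. The other 4 old irradiated mice lay between -2.33 and -1.23. The pair resembled each other, with an SD of the log2 differences over genes of 0.31. Changes in old irradiated mice are therefore given with and without these 2 arrays. The correlations over the 24 arrays include them and were not computed without them. Old unirradiated mice 1 and 6 were also close (SD 0.18), and counting them as 1 sample left 5 members called in the irradiation comparison and 6 in the age comparison, the same numbers as with both. Markers of hepatocytes had a mean more than 4 above their medians in young unirradiated mice on 7 arrays. These were young unirradiated 5, young irradiated 2, 4 and 5, and old irradiated 2, 3 and 5. The scanner read the young mice's arrays on 1 day and the old mice's arrays on another, and the ages were on separate slides. Scan day, slide and age therefore cannot be told apart. In each age a single slide held both treatments, and the others held only irradiated or only unirradiated mice.

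Irradiation raised 7 of the 9 genes in young mice and lowered Lmo2. The largest rises were those of Cd34, Tal1 and Slamf1, each 4.01-fold or more, and Gfi1b, Gata2, Meis1 and Runx1 rose between 2.33-fold and 3.57-fold. In old mice 5 genes rose, Tal1, Slamf1, Cd34, Gfi1b and Runx1, and none fell. Kit did not pass in either age. In limma's moderated test over 17464 genes, a gene counted as called with p below 0.005 and, after the Benjamini-Hochberg adjustment, below 0.05. By this rule 35.8% of all genes were called in young mice, 14.4% as higher, and 25% in old mice, 7.6% as higher. The median change of the 9 genes was 1.59 in the young and 1.27 in the old, beside medians of -0.20 and -0.25 over every gene tested. In young mice the irradiated and unirradiated groups did not overlap for 6 members, 5 of them higher after irradiation (25% of all genes did not overlap, 9.59% higher). In old mice they did not overlap for 3 members, Tal1, Slamf1 and Gfi1b, all higher (22.7% of all genes, 5.93% higher). Fewer cells of a type and less RNA per cell cannot be told apart from such bulk arrays alone. The study's blood counts gave a smaller share of lymphocytes and a larger share of neutrophils after irradiation in each age.

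**Figure D1:**
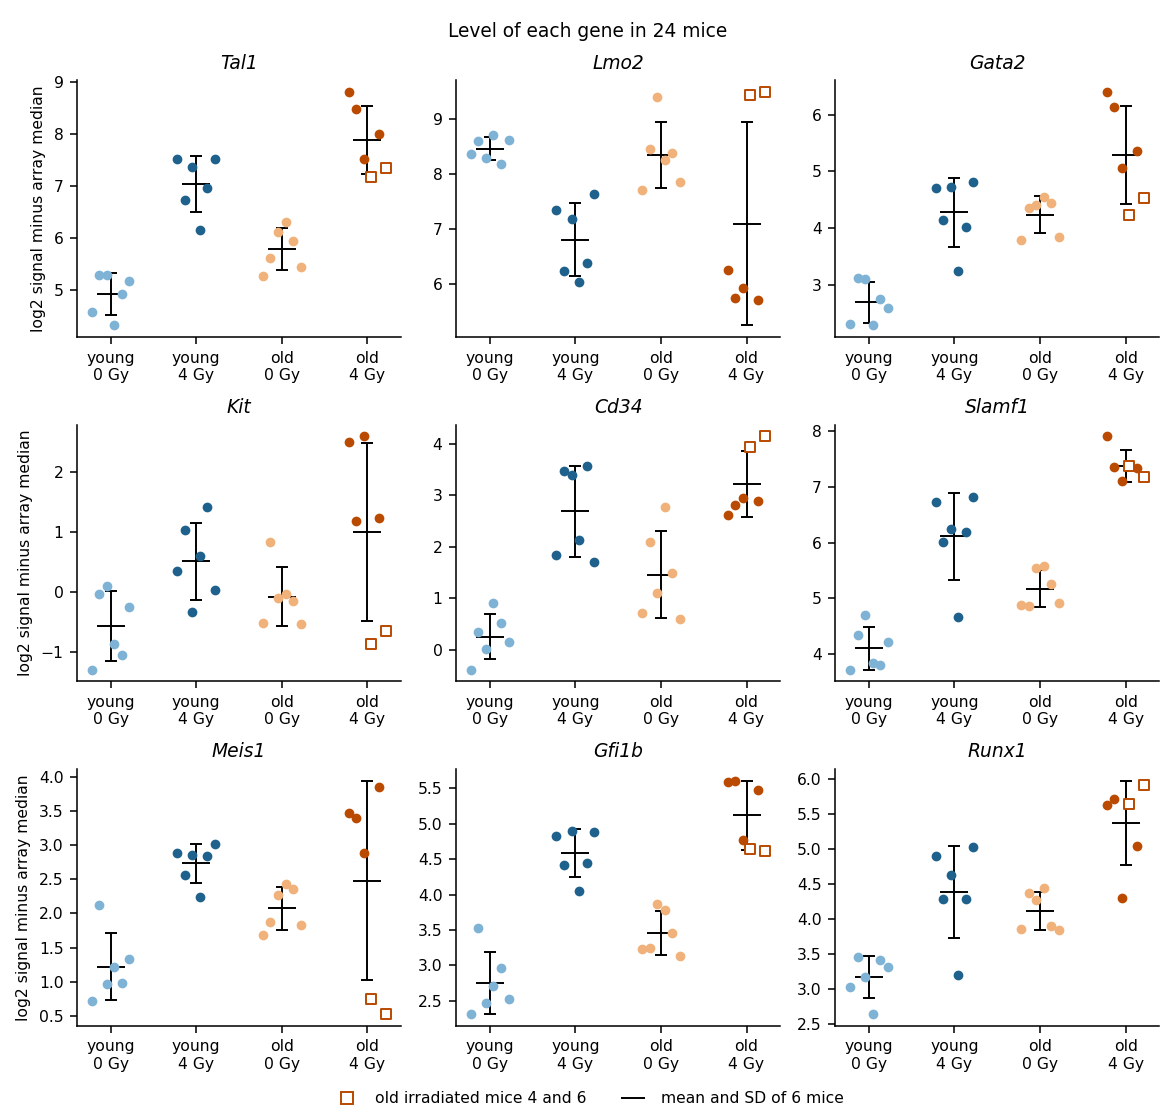
Level of each of the 9 genes (y axis, log2 signal minus array median) in 4 groups of 6 mice (x axis, age and dose). Each point is a mouse, the black bar is the mean with its SD, and open squares are old irradiated mice 4 and 6, which lie outside the range of the other 4 old irradiated mice for Lmo2, Kit, Meis1, Gata2, Cd34, Tal1 and Gfi1b.

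Tal1, the helix-loop-helix factor of the complex, was measured on 1 probe (mm9 chr4:114744219-114744278, plus strand) that was well above background on all 24 arrays. In young unirradiated mice its log2 level had a lowest value of 4.32, a median of 5.05 and a highest value of 5.30, and in young irradiated mice these were 6.15, 7.17 and 7.53. Old unirradiated mice lay at 5.28, 5.79 and 6.31, and old irradiated mice at 7.18, 7.77 and 8.82. Every irradiated mouse was above every unirradiated mouse of its age. The change was 2.11 ± 0.26 (SE) in young mice, a 4.33-fold rise (adjusted p = 5.42e-05), and 2.11 ± 0.33 in old mice, 4.31-fold (adjusted p = 0.000819). The exact permutation test, two-sided, gave 0.0022 in each age, the smallest p that 6 mice against 6 allow. Leaving out old irradiated mice 4 and 6 gave 2.42.

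Gata2, the GATA factor of stem and progenitor cells (mm9 chr6:88156362-88156421, plus strand), was well above background on all arrays. Its lowest, median and highest log2 levels were 2.28, 2.67 and 3.11 in young unirradiated mice and 3.24, 4.43 and 4.81 in young irradiated mice, with no overlap. In old mice they were 3.79, 4.38 and 4.56 without irradiation and 4.23, 5.21 and 6.40 after it, and the groups overlapped. Gata2 rose 3.01-fold in young mice (log2 change 1.59 ± 0.27, adjusted p = 0.00048). In old mice the change was 1.05 ± 0.37 and missed the threshold on p (p = 0.014 in limma, adjusted p = 0.0426, exact permutation p = 0.026). Old irradiated mice 4 and 6 held the lowest values of their group, 4.23 and 4.52, and without them Gata2 rose 2.84-fold in old mice (adjusted p = 0.00174), and leaving out mouse 4 alone was enough for it to pass. It also passed in old mice under each of the 5 other scalings of the arrays that were tried, with changes of 1.25 to 1.40.

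Lmo2, the bridging protein (mm9 chr2:103821857-103821916, plus strand), was the only 1 of the 9 whose mean fell in each age. In young mice its log2 level went from a lowest, median and highest of 8.19, 8.49 and 8.72 without irradiation to 6.04, 6.79 and 7.65 after it, and the groups did not overlap. The change of -1.66 ± 0.27 corresponds to a 3.15-fold lower level (adjusted p = 0.000336). Old unirradiated mice had 7.72, 8.33 and 9.41. Of the old irradiated mice, 4 lay between 5.71 and 6.26, below every old unirradiated mouse, while mice 4 and 6, at 9.45 and 9.50, were the highest of the 24. Over all 6 mice the change in old mice was -1.25 ± 0.71 and did not pass (adjusted p = 0.187, exact permutation p = 0.14). Without mice 4 and 6 it was -2.43 (adjusted p = 0.000216), a 5.41-fold lower level.

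Gfi1b, the repressor (mm9 chr2:28464982-28465041, minus strand), did not overlap between irradiated and unirradiated mice in either age. Its lowest, median and highest log2 levels were 2.31, 2.61 and 3.52 in young unirradiated mice and 4.04, 4.64 and 4.90 in young irradiated mice. In old mice they were 3.13, 3.35 and 3.87, and 4.62, 5.13 and 5.61. The rises were 3.57-fold in young mice (1.84 ± 0.22, adjusted p = 4.78e-05) and 3.18-fold in old mice (1.67 ± 0.27, adjusted p = 0.00108), where the change without mice 4 and 6 was 1.91.

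Runx1 is described here by its brighter probe (mm9 chr16:92605785-92605844, minus strand). Young unirradiated mice had a lowest, median and highest log2 level of 2.64, 3.24 and 3.46, and young irradiated mice had 3.20, 4.46 and 5.04. Old unirradiated mice had 3.84, 4.08 and 4.44, and old irradiated mice 4.30, 5.64 and 5.92. In each age a single irradiated mouse, young irradiated mouse 4 at 3.20 and old irradiated mouse 3 at 4.30, lay within the range of the unirradiated mice. Runx1 rose 2.33-fold in young mice (1.22 ± 0.28, adjusted p = 0.0031) and 2.40-fold in old mice (1.27 ± 0.30, adjusted p = 0.00642). Without old irradiated mice 4 and 6 its change was 1.06 and still called.

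Meis1, a homeobox factor of stem cells and megakaryocytes (mm9 chr11:18780695-18780754, minus strand), was well above background on 23 of 24 arrays. Its lowest, median and highest log2 levels were 0.72, 1.10 and 2.12 in young unirradiated mice and 2.24, 2.85 and 3.02 in young irradiated mice, with no overlap. The rise was 2.85-fold (1.51 ± 0.23, adjusted p = 0.000191). Old unirradiated mice had 1.68, 2.08 and 2.43. Old irradiated mice 4 and 6, at 0.75 and 0.53, were below all of them, and the other 4, at 2.88 to 3.85, were above all of them. Over the 6 mice the change was 0.41 ± 0.56 and did not pass (adjusted p = 0.59). Without mice 4 and 6 it was 1.33 (adjusted p = 0.00113).

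Among the surface proteins, Slamf1 (mm9 chr1:173730343-173730402, plus strand) had lowest, median and highest log2 levels of 3.72, 4.03 and 4.71 in young unirradiated mice and 4.67, 6.21 and 6.82 in young irradiated mice. Young irradiated mouse 4, at 4.67, was the single one within the unirradiated range. Old unirradiated mice had 4.87, 5.09 and 5.57, and old irradiated mice, at 7.11, 7.34 and 7.91, were all higher. The rises were 4.01-fold in young mice (2.00 ± 0.33, adjusted p = 0.000332) and 4.60-fold in old mice (2.20 ± 0.24, adjusted p = 0.000139). Unlike Lmo2, Kit and Meis1, Slamf1 had levels in old irradiated mice 4 and 6 (7.38 and 7.18) that lay within the range of the other 4, and its change without them was 2.25.

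Cd34 is described by its brighter probe (mm9 chr1:196787392-196787451, plus strand), which was well above background on 23 of 24 arrays. Young unirradiated mice had a lowest, median and highest log2 level of -0.39, 0.25 and 0.90, and young irradiated mice had 1.70, 2.76 and 3.57, with no overlap. Old unirradiated mice had 0.59, 1.30 and 2.77, and old irradiated mice 2.61, 2.92 and 4.14, so that the groups of old mice overlapped. The rise in young mice, 5.39-fold (2.43 ± 0.37, adjusted p = 0.000204), was the largest among the 9 genes, and that in old mice was 3.39-fold (1.76 ± 0.42, adjusted p = 0.00666). Old irradiated mice 4 and 6 held the 2 highest values, and without them the change was 1.35 and was still called (adjusted p = 0.0143).

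Kit (mm9 chr5:76052394-76052453, plus strand) was near background, being well above it on 18 of 24 arrays and on 3 of 6 in young unirradiated mice. Its lowest, median and highest log2 levels were -1.30, -0.56 and 0.10 in young unirradiated mice and -0.34, 0.47 and 1.41 in young irradiated mice. In old mice they were -0.53, -0.13 and 0.82, and -0.87, 1.20 and 2.59. The change was 1.08 ± 0.33 in young mice (p = 0.00575 in limma, adjusted p = 0.0156, exact permutation p = 0.019) and 1.08 ± 0.58 in old mice (adjusted p = 0.166). In young mice Kit passed under scaling by the 75th percentile or by the median over probes above background on all arrays (1.08 and 1.12), and without young unirradiated mouse 2 or 3 or young irradiated mouse 3. In old mice it passed without mice 4 and 6, 3.88-fold higher after irradiation (adjusted p = 0.00147).

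**Figure D2:**
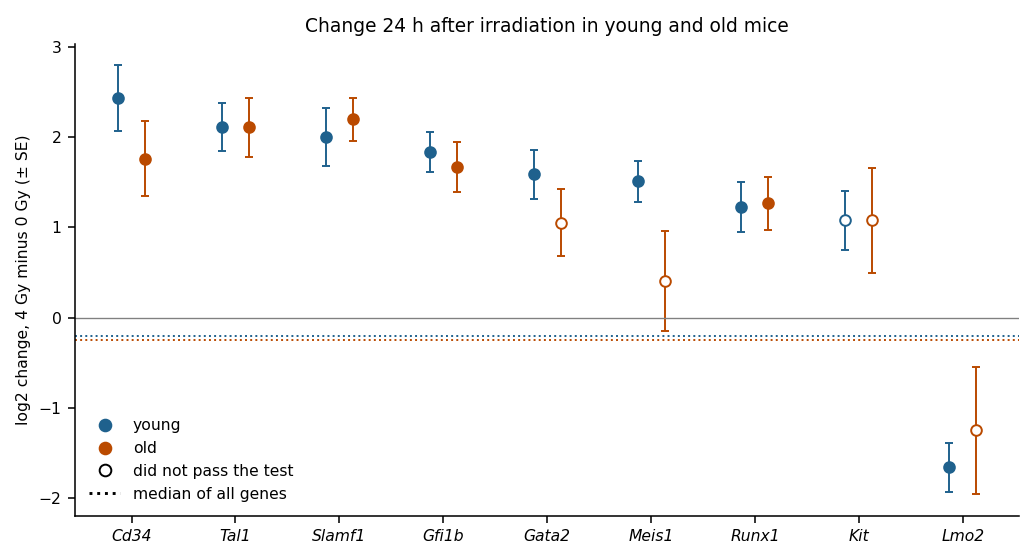
Log2 change from 0 to 4 Gy (y axis, with SE) of the 9 genes (x axis) in young and old mice, 6 mice per group. Filled points passed the test, open points did not, and dotted lines give the median of all genes, -0.20 in young and -0.25 in old mice.

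With old irradiated mice 4 and 6 left out, all 9 members were called in old mice, 8 higher and Lmo2 lower, in a fit that called 34.7% of all genes. The remaining 4 irradiated mice did not overlap the 6 unirradiated mice for 7 members (32.7% of all genes). The exceptions were Cd34 and Runx1. Without the 7 arrays high in hepatocyte markers, which left mice 1, 4 and 6 of the old irradiated group, 8 members were called in the young, beside 35.4% of all genes, and 5 in the old, beside 40.5%. In the old, Lmo2 and Meis1 then had changes of 0.052 and -0.49. Within the slide that held both treatments, with 2 irradiated and 2 unirradiated mice of an age, the differences had the direction of the full comparison for all 9 genes in each age. They were 2.08 in young and 2.95 in old mice for Tal1, 2.36 and 2.53 for Slamf1, and -1.62 and -2.12 for Lmo2. These mice are part of the full comparison too, so the shared direction is not independent of it. The old irradiated mice on this slide were 1 and 2, not 4 and 6. With slide as a fixed block 4 members were called in young mice and 4 in old mice, in fits that called 10.4% and 2.86% of all genes. In 1 fit of all 24 arrays 7 were called in young mice, Lmo2 not among them, beside 22.7% of all genes. With a normexp background correction in place of the scanner's own, 6 members were called in young mice, Lmo2 not among them, beside 7.09% of all genes. In old mice 0 members were called with it, beside 0.0679% of all genes.

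Cd34 and Runx1 each have a second probe, and these did not show the rise. The dimmer Cd34 probe (mm9 chr1:196785280-196785339), 2112 bases from the brighter one, was well above background on 11 of 24 arrays. Its changes were 0.20 ± 0.43 in young mice and 0.44 ± 0.48 in old mice, neither called. The dimmer Runx1 probe (mm9 chr16:92604413-92604472), 1372 bases from the brighter one, was well above background on all arrays. Its levels in young mice ran from 1.98 to 2.85 without and from 1.56 to 3.49 with irradiation, and its changes were 0.08 ± 0.29 in young mice and -0.40 ± 0.25 in old mice, neither called. With the mean of both probes Runx1 was no longer called in either age (0.65 and 0.43), and Cd34 was called in young mice (1.31) but not in old mice (1.10). The rises of Cd34 and Runx1 are therefore those of 1 probe of each pair. The first 30 of the 60 bases of these probes are shown, 5′ to 3′, since the calls turn on which of them is read.
Cd34, brighter probe: ccagagatgagaggattgggtgtattctct
Cd34, dimmer probe: taaacaagatatcgggagccaccagagcta
Runx1, brighter probe: caggagggcccttggaggccaccaggaaga
Runx1, dimmer probe: tgtgcatcgtgtcactgtaaatgtaatggt

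**Figure D3:**
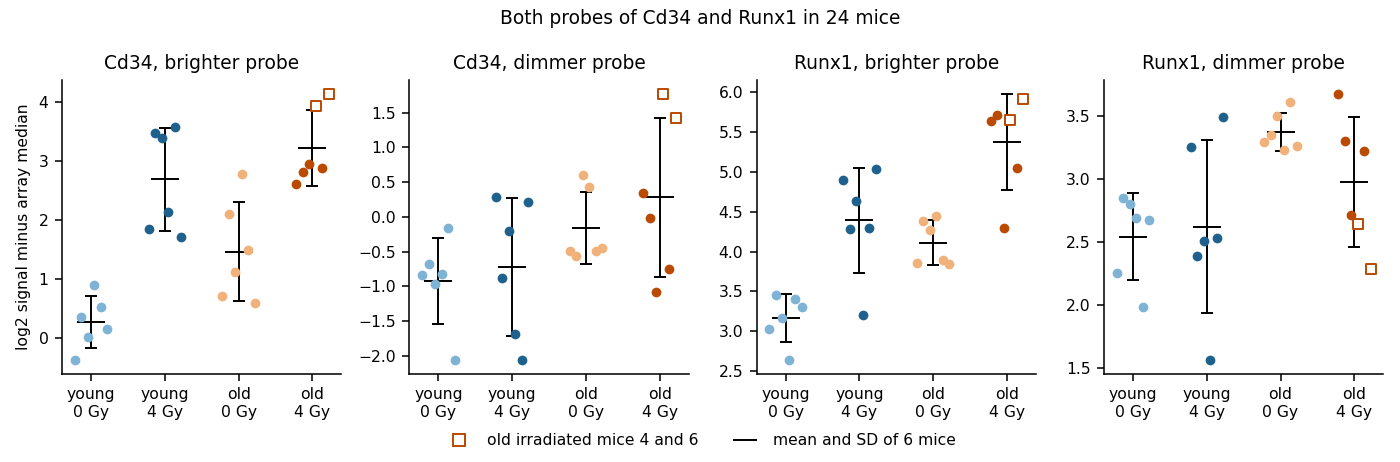
Log2 signal minus array median (y axis) of both probes of Cd34 and Runx1 in the 4 groups of 6 mice (x axis). Points are mice, bars are the mean and SD, and open squares are old irradiated mice 4 and 6. The irradiated groups were called higher on the brighter probe of each gene in each age, and on neither dimmer probe. The ranges of irradiated and unirradiated mice overlap on both dimmer probes in each age. They also overlap on the brighter Runx1 probe in each age and on the brighter Cd34 probe in old mice.

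Whether the response differed between the ages was tested as an interaction over all 24 arrays. None of the 9 members passed, and 0% of all genes did (4115 genes had an unadjusted p under 0.05 in limma, the lowest adjusted p was 0.0598, and the random variance test also called 0). The estimates, old response minus young response, ran from -1.11 ± 0.62 for Meis1 (adjusted p = 0.267) to 0.41 ± 0.79 for Lmo2 (adjusted p = 0.746). For Tal1, Kit and Runx1 they were within 0.05 of 0 with SEs of 0.42, 0.69 and 0.41, which leaves room for differences in either direction. Which arrays were left out moved both. Without old irradiated mice 4 and 6 the estimate for Meis1 was -0.19 and that for Lmo2 turned to -0.78 (adjusted p = 0.384). Without the 7 arrays high in hepatocyte markers they were -2.14 (adjusted p = 0.0305, with an unadjusted p above the threshold) and 1.18 (adjusted p = 0.218), and neither was called, in a fit that called 18.4% of all genes.

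In unirradiated mice, 6 of the 9 genes were higher in old than in young mice and none was lower, where 63.8% of all genes were called, 48.3% as higher. The count called is near the share of all genes, so it is not particular to these genes. Gata2 had the largest difference, 2.92-fold (1.55 ± 0.20, adjusted p = 2.83e-05), followed by Cd34 (1.20 ± 0.35), Slamf1 (1.07 ± 0.20), Runx1 (0.95 ± 0.17), Tal1 (0.86 ± 0.22) and Meis1 (0.85 ± 0.23). Kit, Gfi1b and Lmo2 did not pass, with differences of 0.48, 0.70 and -0.12. Of the second probes, the dimmer one of Cd34 was not called (0.76 ± 0.30), and the dimmer one of Runx1 was called higher (0.83 ± 0.16). With 1 mouse left out at a time, Gata2, Slamf1 and Runx1 were called in all 12 fits, whereas Tal1, Meis1 and Cd34 were lost in 4, 6 and 8 of them. Groups did not overlap for 3 of the 9, Gata2, Slamf1 and Runx1, which is below the share of all genes (48.6%, 37.4% higher). The median difference of all genes was 0.63 in this comparison and moved to between -0.07 and 0.14 under 5 other scalings of the arrays. Relative to the median of all genes, Gata2 was higher by 0.92 under the array median and by 0.90 to 1.05 under the other scalings. It was the single member called under each of them, at 0.88 to 1.06. Of all genes, 37.8% were called with the 75th percentile, 38.7% with quantiles and 25.9% with the deposited values. Under those scalings the differences of Tal1, Cd34, Slamf1, Meis1 and Runx1 kept their sign but did not pass, and that of Kit turned to -0.04, -0.08 and -0.18 under 3 of them. By the array median 75.7% of all calls were higher in old mice, and under the other scalings 7.71% to 44.7%.

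**Figure D4:**
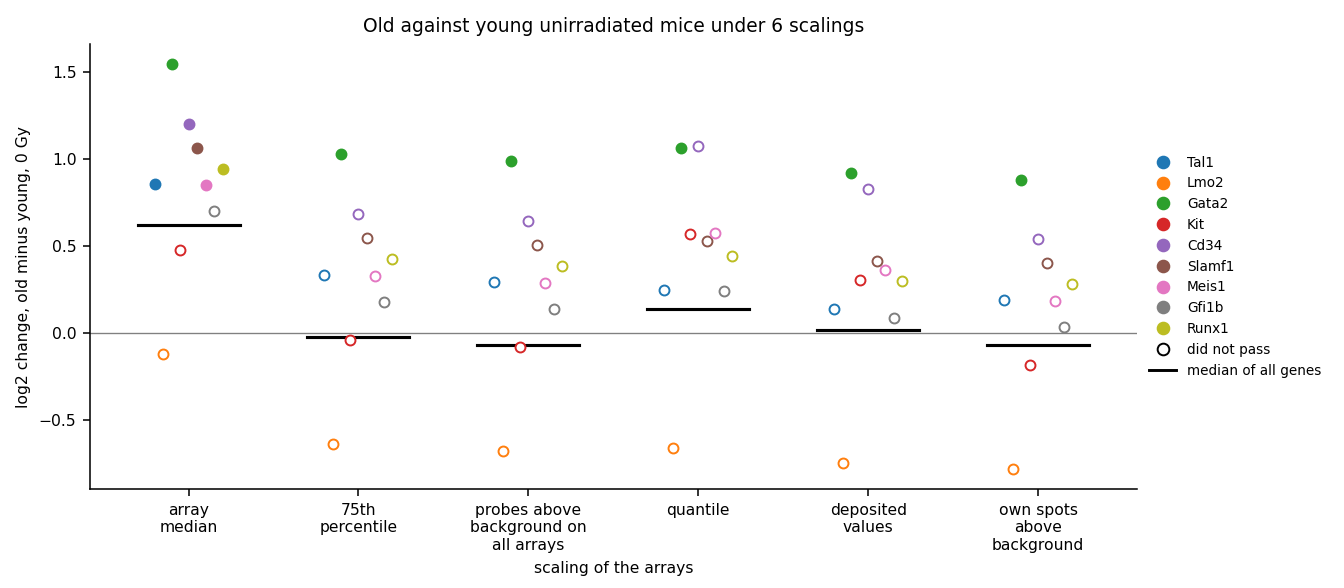
Log2 difference between old and young unirradiated mice (y axis) of the 9 genes under 6 scalings of the arrays (x axis), 6 mice per group. Filled points passed the test, open points did not, and black lines give the median of all genes, 0.63 under the array median and between -0.07 and 0.14 under the others. Gata2 is filled in every column and lies above the line by 0.90 to 1.05.

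By group means, Gata2 levels followed the order young unirradiated, old unirradiated, young irradiated and old irradiated mice, at 2.69, 4.24, 4.28 and 5.29. The old unirradiated and young irradiated mice in the middle, with SDs of 0.33 and 0.60, differed by less than their spread. Tal1, Slamf1, Gfi1b, Runx1, Cd34 and Kit had the same order of group means by this scaling. For Kit each step in this order was smaller than the larger SD of the groups it joined. For Tal1 the means were 4.93 ± 0.41, 5.79 ± 0.41, 7.05 ± 0.54 and 7.90 ± 0.65 (SD, n = 6), and for Slamf1 they were 4.11 ± 0.39, 5.18 ± 0.33, 6.11 ± 0.77 and 7.38 ± 0.28. Meis1 had its highest mean in young irradiated mice (2.73 ± 0.28), ahead of old irradiated mice by less than their spread (2.48 ± 1.46), and Lmo2 had its lowest mean there (6.81 ± 0.67), below old irradiated mice by less than their spread (7.10 ± 1.85). Among irradiated mice, old and young differed for none of the 9 genes by the test (2% of all genes were called, 1.4% as higher). Slamf1 came nearest, with a difference of 1.27 ± 0.35 (limma p = 0.00284, adjusted p = 0.0756, exact permutation p = 0.0022), and its groups did not overlap (5.07% of all genes, 4.45% higher and 0.613% lower). Gata2 differed by 1.01 ± 0.42 (adjusted p = 0.184), and without old irradiated mice 4 and 6 by 1.46, which was called (adjusted p = 0.0101). The share of calls that were higher was 70.0% by the array median and 10.6% to 43.9% under the other scalings. Both comparisons of irradiated with unirradiated mice share their groups with these comparisons of age, so their values stand side by side and are not independent.

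Other genes of the same programs changed in both directions. Beside the counts that follow, 14.4% of all genes were called higher and 21.4% lower with irradiation in young mice. In old mice 7.6% were called higher and 17.4% lower. Of 10 further erythroid and megakaryocytic regulators tested (13 listed), 5 rose and 3 fell with irradiation in young mice, and 5 rose and 3 fell in old mice, with median changes of 0.59 and 0.68. Epor, the erythropoietin receptor, rose 4.23-fold in young mice (adjusted p = 4.57e-05) and 4.76-fold in old mice (adjusted p = 0.000422). Bcl11a, a repressor of fetal globin that B cells also use, fell by 2.89 in young mice and by 4.00 in old mice on the log2 scale. Myb, a factor of cycling progenitors, fell by 2.02 and 2.50 on the same scale.

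Of 16 complex partners and relatives tested (19 listed), 2 rose and 6 fell in young mice, and 1 rose and 6 fell in old mice, with median changes of -0.33 and -0.69. Gata1, the GATA factor of erythroid and megakaryocytic cells, rose 3.11-fold in young mice (adjusted p = 0.000271) and 3.56-fold in old mice (adjusted p = 0.000639). Tcf3, an E protein that pairs with Tal1 and is needed in B cells, fell 2.51-fold and 4.09-fold. Of 17 further stem and progenitor genes tested (20 listed), 5 rose and 2 fell in young mice, and 2 rose and 3 fell in old mice. Angpt1, a growth factor that stem cells and platelets carry, rose 3.90-fold in young mice. Flt3, a receptor of lymphoid and dendritic progenitors, fell 3.17-fold in young and 4.05-fold in old mice. Hlf, a stem cell factor, was called higher in old mice, but its probe was well above background on 1 of 6 unirradiated and 5 of 6 irradiated arrays, so the size of its change is not given. In the age comparison of unirradiated mice, 10 of 16, 7 of 10 and 10 of 17 genes of the 3 lists were higher and 0, 0 and 2 lower, beside 48.3% of all genes higher and 15.5% lower. The list medians were 0.68, 0.90 and 0.83, beside 0.63 for all genes. Under the 5 other scalings 1 to 2 genes of the first list, 1 to 2 of the second and 0 to 4 of the third were higher, and 0 to 1, 0 to 1 and 2 to 3 were lower. By the array median the largest differences were those of Spi1 (1.79), Pbx3 (1.57), Cebpa (1.52) and Hoxb4 (1.46). Without old irradiated mice 4 and 6, irradiation in old mice raised 5 and lowered 2 of the erythroid and megakaryocytic regulators, raised 2 and lowered 5 of the complex partners, and raised 3 and lowered 4 of the stem and progenitor genes. Among irradiated mice a single gene of the 3 lists was called, Prom1, a surface marker of progenitors, as lower in old mice. Its probe was well above background on 1 of 6 old and 5 of 6 young arrays, so no size is given.

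All 18 platelet and megakaryocyte markers (the brightest were Pf4, Ppbp and Treml1) rose with irradiation in each age. The medians were 1.91 in young and 1.85 in old mice, where 14.4% and 7.6% of all genes were called higher. The mean of these markers per mouse was taken relative to their medians in young unirradiated mice. It ran from -0.42 to 0.39 in that group and from 0.74 to 2.58 in young irradiated mice. In old unirradiated mice it ran from 0.64 to 1.63, and in old irradiated mice from 2.55 to 3.26. As a description over the 24 arrays, with no test, the Pearson correlation of this mean was 0.99 with Slamf1, 0.96 with Tal1, 0.94 with Runx1, 0.93 with Gfi1b, 0.88 with Gata2 and 0.83 with Cd34. It was 0.54 with Meis1, 0.52 with Kit and -0.37 with Lmo2. With group means removed it was 0.92 with Slamf1, 0.78 with Runx1, 0.71 with Tal1, 0.58 with Gata2, 0.50 with Gfi1b, 0.43 with Lmo2, 0.16 with Cd34, 0.13 with Meis1 and -0.082 with Kit. The arrays share their groups and scaling. By the study's blood counts, radiation did not change platelet numbers appreciably in either age, and old unirradiated mice had more platelets than young ones. All 18 markers were above background in every group, and their part in the changes of the members was not tested.

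Of 19 red cell markers tested (20 listed, with Alas2 and Fech among the brightest), 15 fell and 2 rose with irradiation in young mice. In old mice 1 rose and 0 fell. Of all genes, 21.4% were called lower and 14.4% higher in young mice, and 17.4% and 7.6% in old mice. Without old irradiated mice 4 and 6, 16 red cell markers fell and 1 rose in old mice. Their mean ran from -0.37 to 0.24 in young unirradiated mice, from -2.43 to -0.55 in young irradiated mice, from -0.55 to 0.89 in old unirradiated mice and from -2.33 to 1.77 in old irradiated mice. Its correlation over the 24 arrays was 0.97 with Lmo2 and 0.98 after group means were removed, whereas it was -0.70 with Meis1 and -0.69 with Kit. Old irradiated mice 4 and 6 were far above the rest of their group in these markers and in Lmo2, and below it in Meis1 and Kit. They can weigh heavily on these correlations, also after group means were removed, and the values without them were not computed. Their part in the fall of Lmo2 was not tested.

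Markers of other cell types and of cycling cells were read in the same way. With irradiation 14.4% of all genes were called higher and 21.4% lower in young mice. In old mice these shares were 7.6% and 17.4%, and a count near or below them is not particular to a cell type. Such were the counts of cycling cells in both ages and of hepatocytes in young mice. In old mice they were those of neutrophils, monocytes and macrophages, mast cells and basophils, and T and NK cells. Of 11 endothelial markers tested (18 listed, Kdr, Esam and Pecam1 the brightest), 8 rose in young and 9 in old mice, while the endothelial receptor Tek and the sialomucin Emcn were not well above background on any array. Their mean ran from -0.27 to 0.67 in young unirradiated, 1.10 to 2.24 in young irradiated, -0.58 to -0.19 in old unirradiated and 1.12 to 2.27 in old irradiated mice. Of 10 mast cell and basophil markers tested (14 listed, Hdc, Gata3 and Tpsb2 the brightest), which share Kit and Gata2 with progenitors, 4 rose and 1 fell in young mice and 1 rose in old mice. All 14 B cell markers (Cd79b, Ms4a1 and Cd79a) fell in young mice and 13 fell in old mice. Of 16 T and NK cell markers (Gzma, Lck and Cd3e), 3 rose and 8 fell in young mice, and 1 fell in old mice. Of 16 neutrophil markers (S100a9, S100a8 and Csf3r), 6 rose in young mice and 1 in old mice. Of 14 monocyte and macrophage markers tested (17 listed, among them Csf1r, Cd68 and Cx3cr1), 11 rose and 1 fell in young mice, and 1 rose and 2 fell in old mice. Of 14 hepatocyte markers tested (24 listed, among them Apoa2, Serpina1a and Cyp2e1), 1 rose in young and 13 in old mice. Of 11 markers of cycling cells tested (12 listed, among them Mki67, Ccna2 and Rrm2), 3 fell in young mice and 2 in old mice. Without old irradiated mice 4 and 6 the counts in old mice were 18 higher for platelets, 9 higher for endothelial cells, 3 higher for mast cells and basophils, 14 lower for B cells, 1 higher for T and NK cells and 2 higher for neutrophils. They were 2 higher and 2 lower for monocytes and macrophages, 14 higher for hepatocytes and 7 lower for cycling cells. Of the genes in these lists, Itga2b stands in both the platelet list and the list of erythroid and megakaryocytic regulators. The part of these cells in the changes of the members was not tested.

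The members did not all follow each other across mice. The pairwise correlations over 24 arrays were between 0.85 and 0.97 among Tal1, Gata2, Slamf1, Gfi1b and Runx1. With group means removed, the same pairs ran from 0.46 to 0.95. Cd34, at 0.76 to 0.79 against Tal1, Slamf1, Gfi1b and Runx1 over all arrays, was at -0.18, -0.038, -0.081 and 0.17 against them with group means removed. Lmo2 was negative against each of the other 8 over all arrays, from -0.20 with Runx1 to -0.77 with Meis1. With group means removed it stayed negative against 5 of them and was positive against Runx1 (0.52), Cd34 (0.33) and Slamf1 (0.23). By the correlation over all arrays, the genes outside the 9 that were most alike to Tal1 were Esam, Pdgfa and Cflar, each with a correlation of 0.99. Those most alike to Slamf1 were Mbnl2, Smim3 and Clcn3 (0.99 each), and those most alike to Lmo2 were Slc4a1, Glrx5 and Snx15 (0.99, 0.99 and 0.98). For Gata2 they were Mboat7, Peg13 and Arf3 (0.98 each), for Runx1 Hist1h1c, Samd14 and Ap2m1 (0.98 each), and for Gfi1b Itga6, Ninj1 and Pdgfa (0.97 each). Meis1 was most like Zeb2 (0.96), Bend4 and Mcf2l (0.94 each), Cd34 was most like C3ar1, Npdc1 and Ifitm3 (0.92 each), and Kit was most like Cfl2, Slc25a24 and Slc30a1 (0.84 each).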

How the data were processed

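RNA from blood of 24 mice was hybridised with 1 dye (Cy3), 1 mouse per Agilent array. The authors deposited scanner intensity values from Feature Extraction 12.0.2 (processed signal, background-corrected by the software) and a table of log2 values that they had filtered and median-normalised. From the intensity values, log2 of the processed signal minus the array median over 43020 spots without controls was taken, non-uniform spots were left out and repeat spots averaged. A probe was dropped where 25% of arrays or more had it non-uniform or not significantly positive (24121 of 39429 stayed), the brightest probe stood for a gene, and genes that differed by 1.5-fold from the median in at least 20% of arrays entered the tests (17464).

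Each comparison was fitted with limma 3.58.1 in R 4.3.3 on its 12 arrays, the interaction on 24. A gene was called at p under 0.005 and a Benjamini-Hochberg adjusted p under 0.05 over all genes. Exact permutation tests were two-sided. The fit was tested on simulated data. Other scalings were by the 75th percentile, by probes well above background, by quantiles and by the deposited log2 values. Background correction, filters, blocks and left-out arrays were varied too. Leaving out old irradiated mice 4 and 6 or the arrays high in hepatocyte markers, taking old unirradiated mice 1 and 6 as 1 sample, and scaling by each array's own spots above background were chosen after seeing the data. Lists of related genes were named by the largest changes among called genes, and cell markers by brightness. Some genes that these rules also picked are not reported here. The members and the gene lists were chosen with earlier results of these data known. The labels number the mice and name no cage or litter, so whether mice shared these is not known. The p-values take the mice as independent. Positions are on mm9, from the scanner files. Promoters are RefSeq's on GRCm38.p6. The number of arrays limits the precision.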

Additional observations from a re-analysis of the deposited data

Results flagged for a closer look

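Among 44 sets of 6 mice (11 probes in 4 groups), a single mouse lay far from the other 5 in 2, where chance gives about 1 in 20. Kit in old unirradiated mouse 2 was at 0.82, and its gap to the next mouse was 0.63 of the range of the group. Slamf1 in old irradiated mouse 1 was at 7.91, with a gap of 0.66 of the range. For Kit the value is the highest of the old unirradiated mice, and for Slamf1 it is the highest of all 24 mice.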

How the results depend on the processing

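Leaving out 1 mouse at a time gave 8 to 9 called members for irradiation in young mice, 5 to 6 in old mice, 3 to 7 for age in unirradiated mice (3 without young unirradiated mouse 1 and without old unirradiated mouse 4 or 5), and 0 for age in irradiated mice and for the interaction. For irradiation in young mice the count moved with slide as a fixed block (4, beside 10.4% of all genes). In old mice it moved with normexp (0, beside 0.0679% of all genes), with the mean of all probes (3, beside 25.5%) and without mice 4 and 6 (9). For age in unirradiated mice it fell to 1 with the 75th percentile (beside 37.8% of all genes) and with probes well above background on all arrays (37.1%). It was also 1 with quantiles (38.7%), with the deposited values (25.9%) and with probes well above background on each array. With normexp it was 0 (0% of all genes), and in 1 fit of 24 arrays it was 3 (34.7%). For age in irradiated mice it was 2 in 1 fit of 24 arrays (14.4% of all genes). It was 1 each with slide as a random block (7.68%) and without mice 4 and 6.

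Signs turned for these values. Without the arrays high in hepatocyte markers the change in old mice was 0.052 for Lmo2 and -0.49 for Meis1. For age in unirradiated mice Kit was -0.037, -0.078 and -0.18 under scaling by the 75th percentile and by probes above background on all and on each array, and Lmo2 ran from -0.33 to 0.011 with 1 mouse left out. For age in irradiated mice Lmo2 was -0.39 with quantiles and with the deposited values, -0.11 with normexp, -0.89 without mice 4 and 6, and -0.19 to 0.57 with 1 mouse left out. Meis1 was 0.67 without mice 4 and 6, and -0.53 to 0.14 with 1 mouse left out. The interaction of Lmo2 was -0.50 with slide as a fixed block, -0.78 without mice 4 and 6, and -0.072 to 0.69 with 1 mouse left out. Over all alternatives the interaction also changed sign for Tal1 (-0.54 to 0.87), Kit (-0.32 to 0.88), Runx1 (-0.22 to 0.58), Gfi1b (-0.66 to 0.44), Slamf1 (-0.12 to 0.61) and Gata2 (-1.25 to 0.36), and it did not for Cd34 and Meis1. None was called under any. The cause was not tested.

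Whether replicate numbers pair the mice is not stated in the labels. Correlations of same-numbered deviations ran from -0.60 to 0.58. The same-numbered mouse was the best match for 3 of 6 numbers between old irradiated and old unirradiated mice. It was so for 0 or 1 of 6 in each of the other comparisons. With the replicate block 8, 5, 4, 0 and 0 members were called, beside 28.8%, 19.6%, 58.2%, 0.0115% and 0% of all genes. No count of members moved by more than 1.5 times. Kit was well above background on 18 of 24 arrays, which limits its comparisons.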
